A study of Danio rerio with 8 samples.

Results

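Cytosolic heat shock genes encode the chaperones that fold proteins in the cytosol, together with the transcription factor that switches them on under stress. The set was fixed by 10 zebrafish gene symbols: hsp70.1, hsp70.2, hsp70.3 and hspa8 of the Hsp70 family, hsp90aa1.1 and hsp90aa1.2 of the Hsp90 family, the co-chaperones dnajb1b and bag3, the small heat shock protein hspb1, and the heat shock factor hsf1. Of these, 9 were found among the 32520 genes of the count files, and hsp70.2 was matched to no identifier and is not analysed here. The genes were chosen by symbol after the counts of these 8 livers had been analysed, so that the counts and diet differences given here may have entered the choice. The levels, fold changes and p of the members are therefore a description and not independent evidence.

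RNAseq was run on whole livers of 8 female zebrafish aged 36 wk, 1 library per fish. From 21 d of age, 4 of them were fed a control diet of several protein sources (Control-1 to Control-4) and 4 a diet in which whole egg product replaced part of that protein (Whole Egg-1 to Whole Egg-4). The whole egg diet also held more lipid and more energy, so that protein source and lipid cannot be told apart. All fish were killed by immersion in ice and their livers were frozen. No strain, tank or sampling time is given for single fish, and the p-values measure the spread between these fish.

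In unstressed cells, Hsf1 is held inactive by chaperones, and Hsc70 (hspa8) and Hsp90 beta carry the daily folding load. When unfolded proteins draw the chaperones away, Hsf1 trimerizes, binds heat shock elements and induces a second group of genes, among them the inducible Hsp70 genes, the Hsp90 alpha genes, dnajb1b, bag3 and hspb1. Hsf1 itself is regulated mainly as a protein, so that its mRNA need not follow its activity. The liver makes large amounts of secreted protein and keeps high levels of the constitutive chaperones.

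The reads counted on genes numbered 16916307 to 35871236 in a library (median 21073643.5), and the TMM factors that scale the libraries ranged from 0.695 to 1.74. The summed level of 8 hepatocyte genes was between 18724 and 29992 CPM (counts divided by the TMM-scaled library size) in 7 fish and 7561 CPM in Whole Egg-2, which also had the highest sum of 11 ovary genes (454 CPM, against 3.24 to 55.2 CPM in the others). All 8 hepatocyte markers were detected in every fish. Whole liver was sequenced, so that fewer cells of a type and less RNA per cell cannot be told apart.

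The inducible Hsp70 genes were near the limit of detection in 7 livers and clearly present in 1. For hsp70.1 (ENSDARG00000029688), which encodes a stress-inducible Hsp70 that refolds proteins at the cost of ATP, the counts were 1, 1, 3 and 3 in Control-1 to Control-4 and 2, 1, 96 and 0 in Whole Egg-1 to Whole Egg-4. In CPM, Whole Egg-3 lay at 3.91 and the next fish, Control-4, at 0.202. The 0 in Whole Egg-4 allows a level of up to 0.178 CPM, a limit for counting error only. Whole Egg-3 held 89.7% of all hsp70.1 reads of the 8 fish, and the other fish of both diets overlapped.

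The neighbouring copy hsp70.3 (ENSDARG00000021924), also a stress-inducible Hsp70, gave 0, 2, 3 and 2 counts in the Control fish and 1, 6, 155 and 1 in the Whole Egg fish. Its level was 6.31 CPM in Whole Egg-3 and 0.173 CPM in Whole Egg-2, the next fish, and 91.2% of its reads came from Whole Egg-3. The 0 in Control-1 allows up to 0.166 CPM. In a RefSeq gene table of another assembly (GRCz12tu), hsp70.1, hsp70.2 and hsp70.3 follow one another with no other gene between them. Reads that map to several places, 33.9 to 37.9% of the reads of a fish, were not counted on genes, so that close copies such as these may lack reads, and how reads divide between them is uncertain.

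The constitutive Hsp70 gene hspa8 (ENSDARG00000068992), whose product Hsc70 folds new proteins and strips clathrin from vesicles, showed no such pattern. Its levels were 1629.8, 1229.7, 1126 and 1375 CPM in the Control fish and 1632, 725, 854 and 1112 CPM in the Whole Egg fish. Whole Egg-2, the lowest fish for 27.1% of all genes tested, and Whole Egg-3 (8.29%) were the lowest of the 8 fish. The place of Whole Egg-2 depends on its TMM factor (1.74), the highest of the 8. Whole Egg-1 was level with Control-1. The means were 1340.2 ± 218 CPM (SD, n = 4) on the Control diet and 1081 ± 401 CPM with whole egg. The difference of −0.31 on the log2 scale (SE 0.31, edgeR adjusted p = 0.846) is within the spread between fish.

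Of the Hsp90 alpha genes, hsp90aa1.2 was high in Whole Egg-3 alone and hsp90aa1.1 was low in every fish. For hsp90aa1.2 (ENSDARG00000024746, listed as HSP90AA1), a cytosolic Hsp90 that matures kinases and hormone receptors, the levels were 0.831, 2.07, 0.707 and 1.95 CPM in the Control fish and 1.56, 1.06, 20.9 and 0.713 CPM in the Whole Egg fish. Whole Egg-3 was 10.1 times the next fish, Control-2, and the other 3 Whole Egg fish lay within the range of the Control fish. The means of 1.39 ± 0.721 CPM (SD, n = 4) and 6.05 ± 9.89 CPM differ by less than the SD of the Whole Egg fish (log2 fold change 2.13, SE 1.06, edgeR adjusted p = 0.819). Without Whole Egg-3 the log2 fold change was −0.31 (SE 0.51). DESeq2 gave hsp90aa1.2 no p, as it does for genes in which 1 count is extreme.

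The copy hsp90aa1.1 (ENSDARG00000010478), known in zebrafish for the folding of muscle myosin, was scarcely detected. Its counts were 2, 1, 4 and 0 in the Control fish and 3, 18, 7 and 1 in the Whole Egg fish. Here Whole Egg-2 was highest (0.518 CPM) and Whole Egg-3 second (0.285 CPM), and the 0 in Control-4 allows up to 0.202 CPM. The 4 striated muscle genes that were matched summed to at most 0.404 CPM in any fish, with 2 or 3 of them at 0 in each fish. The 2 Hsp90 alpha genes are direct neighbours in the RefSeq table, and the caution on close copies holds for them too.

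**Figure D1:**
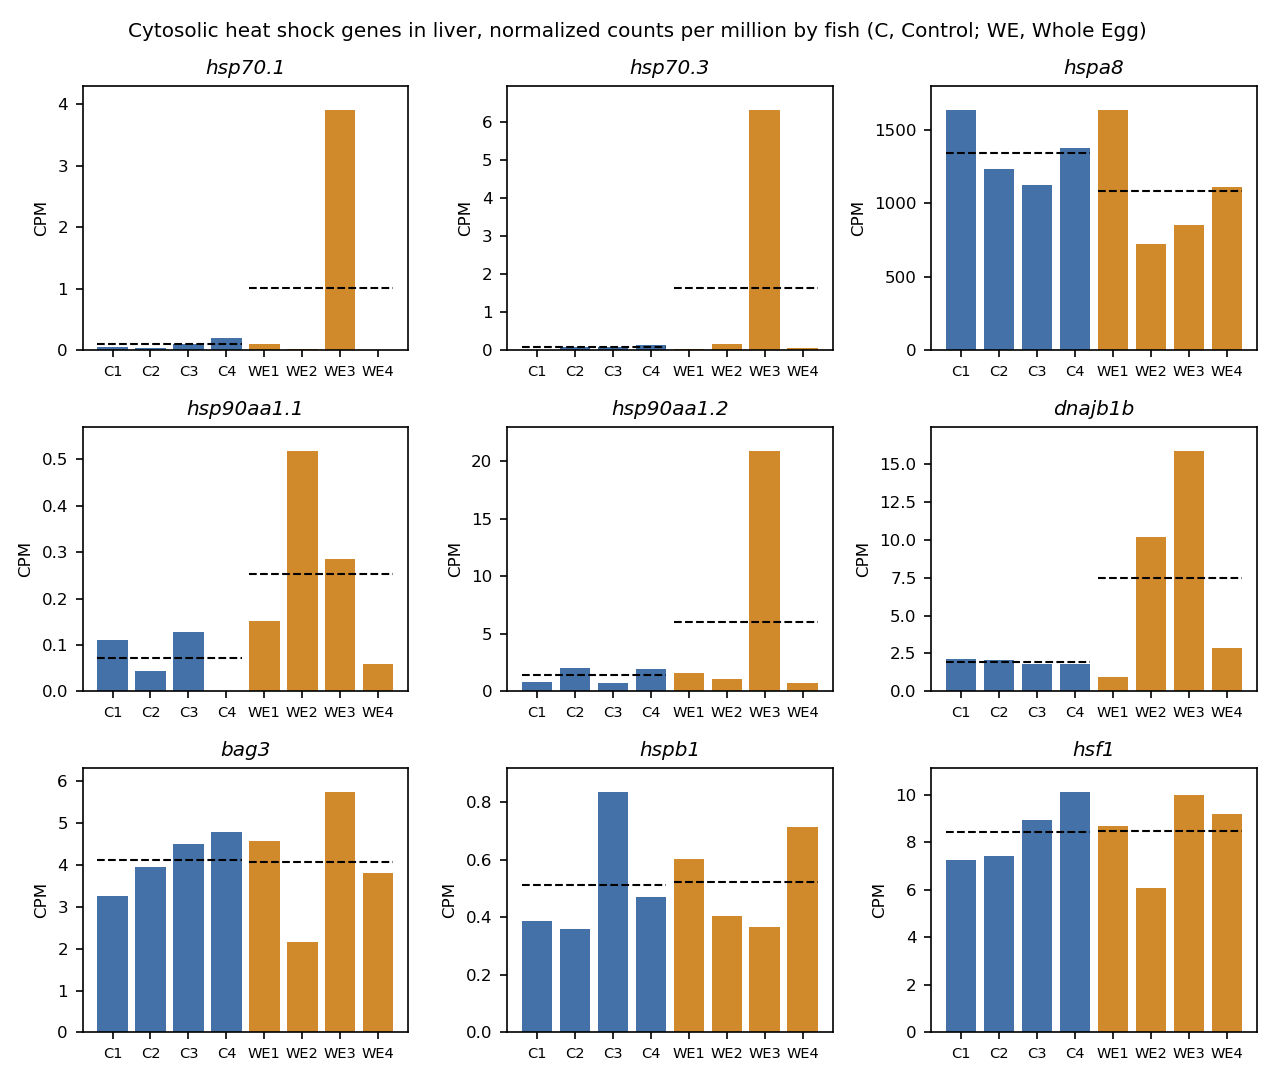
Normalized level (CPM, linear axes from 0) of the 9 cytosolic heat shock genes in each liver, blue for Control fish and orange for Whole Egg fish, with dashed lines at the diet means. Whole Egg-3 alone is high for hsp70.1 (3.91 CPM), hsp70.3 (6.31 CPM) and hsp90aa1.2 (20.9 CPM), Whole Egg-2 and Whole Egg-3 are high for dnajb1b (10.2 and 15.8 CPM), and bag3, hspb1 and hsf1 have nearly equal diet means.

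The co-chaperone gene dnajb1b (ENSDARG00000041394), whose J-domain protein hands substrates to Hsp70 and starts its ATP cycle, was the member with the smallest p. Its levels were 2.16, 2.07, 1.80 and 1.82 CPM in the Control fish and 0.955, 10.2, 15.8 and 2.85 CPM in the Whole Egg fish. Whole Egg-2 and Whole Egg-3 stood well above all others, Whole Egg-4 was just above the Control fish, and Whole Egg-1 was the lowest of all 8, so that the diets overlapped. The means were 1.96 ± 0.181 CPM (SD, n = 4) and 7.46 ± 6.86 CPM, which differ by 1.93 on the log2 scale (SE 0.71, edgeR unadjusted p = 0.0233, adjusted p = 0.819).

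The diet difference of dnajb1b depended on which fish were included. Without Whole Egg-3 its log2 fold change was 1.26 (SE 0.66, unadjusted p = 0.0917, edgeR). Without Whole Egg-2 it was 1.76 (SE 0.77, unadjusted p = 0.0494, edgeR). Without both Whole Egg-2 and Whole Egg-3 it was −0.054 (SE 0.43). These are the 2 highest fish and were picked after seeing the data, so that a fall was bound to follow. Leaving out Control-3 or Control-4 kept the value at 1.89 or 1.90 with an unadjusted p of 0.0541 or 0.0524 (edgeR). Other settings gave a smaller p. Without Whole Egg-1, the lowest fish, the value was 2.30 (edgeR unadjusted p = 0.00145, adjusted p = 0.439). Without both Control-4 and Whole Egg-1 it was 2.26 (edgeR unadjusted p = 0.00516, adjusted p = 0.668). DESeq2 with all fish gave 1.96 (unadjusted p = 0.00554, adjusted p = 0.655). In these settings 9.82%, 7.27% and 6.44% of all genes had an unadjusted p under 0.05. Whole Egg-2 is the fish with the high ovary sum and the low hepatocyte sum, and the part of these in its dnajb1b level was not tested. Counted without regard to strand, where reads that fall on 2 genes are dropped, dnajb1b kept 38.5 to 56.2% of its reads (9 to 178 counts) and had a log2 fold change of 1.92.

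The other co-chaperone gene, bag3 (ENSDARG00000039486), encodes an exchange factor that links Hsp70 to small heat shock proteins and to autophagy. Its levels were 3.27, 3.96, 4.50 and 4.79 CPM in the Control fish and 4.58, 2.16, 5.74 and 3.8 CPM in the Whole Egg fish. Whole Egg-3 was highest here too, but at only 1.2 times the next fish, and Whole Egg-2 was lowest. The diet means were 4.13 ± 0.667 and 4.07 ± 1.5 CPM (SD, n = 4; log2 fold change −0.023, SE 0.31, edgeR adjusted p = 0.986).

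The small heat shock protein gene hspb1 (ENSDARG00000041065), whose product Hsp27 holds unfolded proteins without ATP, was low in every liver. Its counts were 7, 8, 26 and 7 in the Control fish and 12, 14, 9 and 12 in the Whole Egg fish, or 0.36 to 0.835 CPM. Whole Egg-3, with 9 counts (0.366 CPM), did not stand above the others as it did for hsp70.1, hsp70.3 and hsp90aa1.2. The order of the fish rests on few reads here. The diet means were 0.514 ± 0.219 and 0.521 ± 0.165 CPM (SD, n = 4; log2 fold change −0.031, SE 0.40, edgeR adjusted p = 0.985).

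The regulator hsf1 (ENSDARG00000008818) varied least of the members. It lay at 7.26, 7.42, 8.93 and 10.1 CPM in the Control fish and at 8.70, 6.07, 9.97 and 9.20 CPM in the Whole Egg fish, with Control-4 highest and Whole Egg-3 next. The diet means were 8.43 ± 1.35 and 8.49 ± 1.69 CPM (SD, n = 4; log2 fold change 0.0089, SE 0.23, edgeR adjusted p = 0.994). Neither hsf1 nor hsf2 (14.6 ± 1.71 and 14.6 ± 1.32 CPM) stood apart in Whole Egg-3.

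Over the 8 fish, the SD of log2 CPM was 0.25 for hsf1, 0.40 for hspb1, 0.42 for hspa8 and bag3, 1.34 for dnajb1b and 1.55 for hsp90aa1.2. The median over the 13379 genes tested was 0.48. The first of these SDs lies at the 9.90th percentile of all genes tested, and those of dnajb1b and hsp90aa1.2 at the 94.1th and 95.5th. The set held both steady and highly variable genes, and dnajb1b and hsp90aa1.2, the most variable of the 6, were both highest in Whole Egg-3.

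After the filter on low counts, 6 of the 9 genes were tested, and hsp70.1, hsp70.3 and hsp90aa1.1 were not, because too few fish had enough reads of them. With edgeR's quasi-likelihood test and an adjusted p under 0.1, 0 of the 6 members were called, where 0% of all 13379 genes were called (smallest adjusted p 0.819). DESeq2 also called 0 members and 0 genes. At an unadjusted p under 0.05, 1 member (dnajb1b) was higher on the Whole Egg diet, where 2.44% of all genes were, and 0 members were lower, where 1.38% of all genes were. The median log2 fold change was −0.0071 over the 6 members and 0.042 over all genes tested. In 2.17% of all genes tested the diets did not overlap, and in all 6 members tested they did. They also overlapped in hsp70.1, hsp70.3 and hsp90aa1.1, where low counts make overlap likely.

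**Figure D2:**
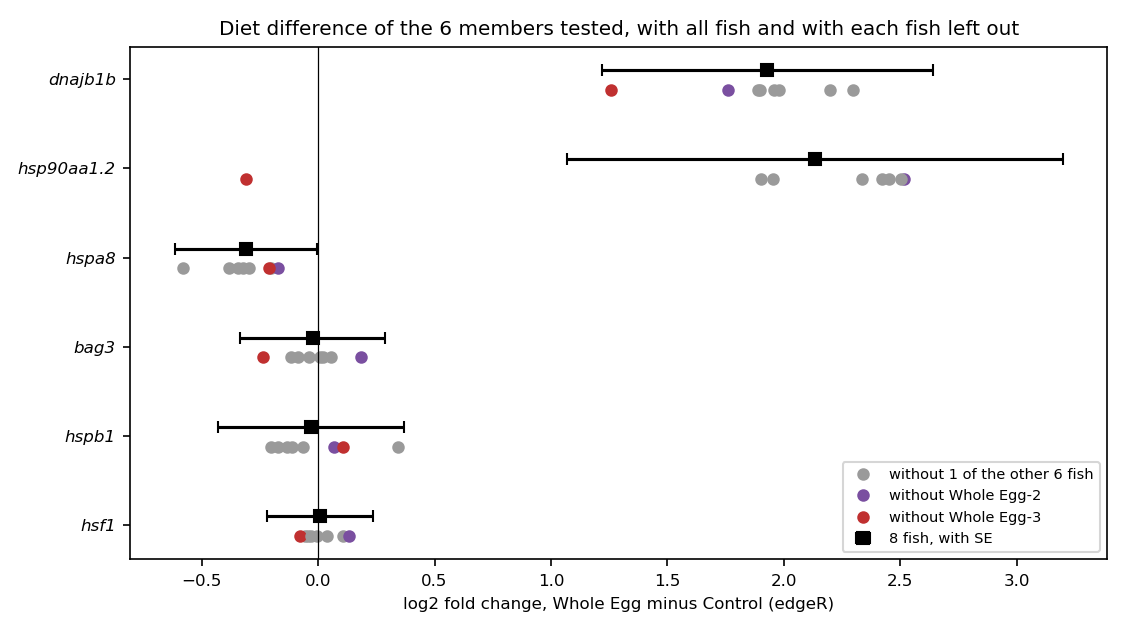
Log2 fold change (Whole Egg minus Control, edgeR) of the 6 members tested. Black squares are the values from 8 fish with bars of 1 SE, and dots below them are the values with 1 fish left out, red without Whole Egg-3 and purple without Whole Egg-2. Without Whole Egg-3, hsp90aa1.2 moves from 2.13 to −0.31 and dnajb1b from 1.93 to 1.26.

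Read across the members, Whole Egg-3 was the highest fish for 5 of 9 (hsp70.1, hsp70.3, hsp90aa1.2, dnajb1b and bag3). Of these, only hsp90aa1.2, dnajb1b and bag3 were among the 6 members tested. The close copies hsp70.1 and hsp70.3 did not pass the filter. Over all genes tested, Whole Egg-3 was the highest fish for 6.88%, against 28.2% for Whole Egg-2. Only 22 tested genes (0.164%) were at least 3 times as high in Whole Egg-3 as in the next fish, and hsp90aa1.2 ranked 2 among the genes highest there by that ratio. Whole Egg-2 had 854 such genes (6.38%). The library of Whole Egg-3 had 20800472 counted reads, close to the median, and the highest share of reads on no annotated gene (14.1%, against 7.86 to 13.2% in the others). Its ovary sum (55.2 CPM) was second to that of Whole Egg-2. Its exocrine pancreas sum (975 CPM) was second to that of Control-2 (1360.1 CPM), with 110 to 538 CPM in the other Whole Egg fish. The part of these in its heat shock levels was not tested.

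The wider chaperone network was compared in part, through 7 further lists, of which 65 of 85 genes were matched to an identifier and 53 were tested. Those without a usable match include ahsa1a, ahsa1b, hspa4a, hspa4b, ptges3a, ptges3b, dnaja2a, dnaja2b, chordc1a, chordc1b, cryaba, cryabb and serpinh1b. Whether these genes were high in Whole Egg-3 is not known here. None of the 53 was called by edgeR at an adjusted p under 0.1, and 0 had an unadjusted p under 0.05, where 3.82% of all genes did. The fold change was above 0 for 38 and below 0 for 15, and it was above 0 for 53.9% of all genes tested. Only 3 of the 53 (5.66%) were highest in Whole Egg-3, close to the share over all genes.

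Among 21 tested co-chaperones and relatives, 17 had a fold change above 0 and 4 below. The largest were those of bag4, a BAG-domain exchange factor (1.93 ± 0.830 and 3.5 ± 2.91 CPM, SD, n = 4; log2 fold change 0.86, SE 0.56), and unc45a, a myosin chaperone that works with Hsp90 (1.48 ± 0.710 and 2.65 ± 1.62 CPM; log2 fold change 0.84, SE 0.51). Both were highest in Whole Egg-2, and neither passed the test (edgeR adjusted p = 0.819 for each). The constitutive Hsp90 beta gene hsp90ab1 lay at 2147 ± 531 and 1728 ± 399 CPM (log2 fold change −0.31, SE 0.30, edgeR adjusted p = 0.844), close to the fold change of hspa8. Like hspa8, hsp90ab1 was lowest in Whole Egg-2 (1172 CPM), a rank that depends on the scaling. Unscaled, it had 40740 counts among 20031071 counted reads in Whole Egg-2. In Control-2 it had 31800 among 19058411. Its levels in the other Whole Egg fish, 1763 to 2115 CPM, lay within the Control range of 1431 to 2612 CPM. The Hsp110 gene hsph1, an exchange factor for Hsp70 that was named after its values were seen, was highest in Whole Egg-3 at 2.28 CPM, with 1.41 CPM in the next fish.

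Of the further small heat shock protein genes, besides the member hspb1, hspb8 was the only one tested (35.8 ± 8.99 and 31.5 ± 11.9 CPM, log2 fold change −0.19, SE 0.31, edgeR adjusted p = 0.899). The Hsf1-binding protein gene hsbp1b lay at 2.15 ± 0.671 and 1.95 ± 0.217 CPM (log2 fold change −0.14, SE 0.30, edgeR adjusted p = 0.915). All 7 tested subunits of the cytosolic chaperonin, the ring that folds actin and tubulin, had a fold change below 0 (median −0.23). Over all genes tested, the fold change was above 0 for 53.9%. The largest of the 7 was that of cct2 (43.7 ± 11 and 31.5 ± 5.69 CPM, log2 fold change −0.47, SE 0.24, edgeR adjusted p = 0.819), followed by cct3 (−0.27, SE 0.24). All 7 were lowest in Whole Egg-2, the lowest fish for 27.1% of all genes tested. This rank too depends on the TMM factor of Whole Egg-2. Their summed level was 249 CPM there and 395 to 467 CPM in the other Whole Egg fish. In the Control fish it was 400 to 508 CPM. The sum need not hold for each subunit. For cct2, the other Whole Egg fish lay at 30.6 to 38.3 CPM and the Control fish at 37.3 to 60.1 CPM. The part of Whole Egg-2 in these fold changes was not tested.

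Chaperones of other compartments were highest in other fish. All 7 tested mitochondrial chaperones were highest in Whole Egg-1, with a summed level of 245 CPM there and 71.5 to 135 CPM in the other 7 fish. The largest fold changes of that list were those of the protease gene lonp1 (0.69, SE 0.40, edgeR adjusted p = 0.819) and of hspd1, the mitochondrial Hsp60 (0.48, SE 0.58, edgeR adjusted p = 0.866). In the endoplasmic reticulum, the Hsp70 gene hspa5 (BiP) lay at 18.4 ± 10.1 CPM on the Control diet and 57.9 ± 59.5 CPM with whole egg (log2 fold change 1.65 with an SE of 0.74, edgeR adjusted p = 0.819), and the disulfide isomerase gene pdia4 at 6.86 ± 4.93 and 20.6 ± 23.9 CPM (1.59, SE 0.90, edgeR adjusted p = 0.819). Both were highest in Whole Egg-2, at 144 and 55.8 CPM. Whole Egg-3 was second for both, at 49.6 CPM for hspa5 and 13.8 CPM for pdia4, with Control-1 next at 31.6 and 12.7 CPM.

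The cold-inducible RNA-binding genes, listed because all fish were killed in ice, lay at 27.1 ± 3.12 and 32.4 ± 4.96 CPM (cirbpa) and 220 ± 41.1 and 203 ± 69.2 CPM (cirbpb), with log2 fold changes of 0.25 (SE 0.20) and −0.12 (SE 0.30) and edgeR adjusted p of 0.829 and 0.928. Neither was highest in Whole Egg-3.

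**Figure D3:**
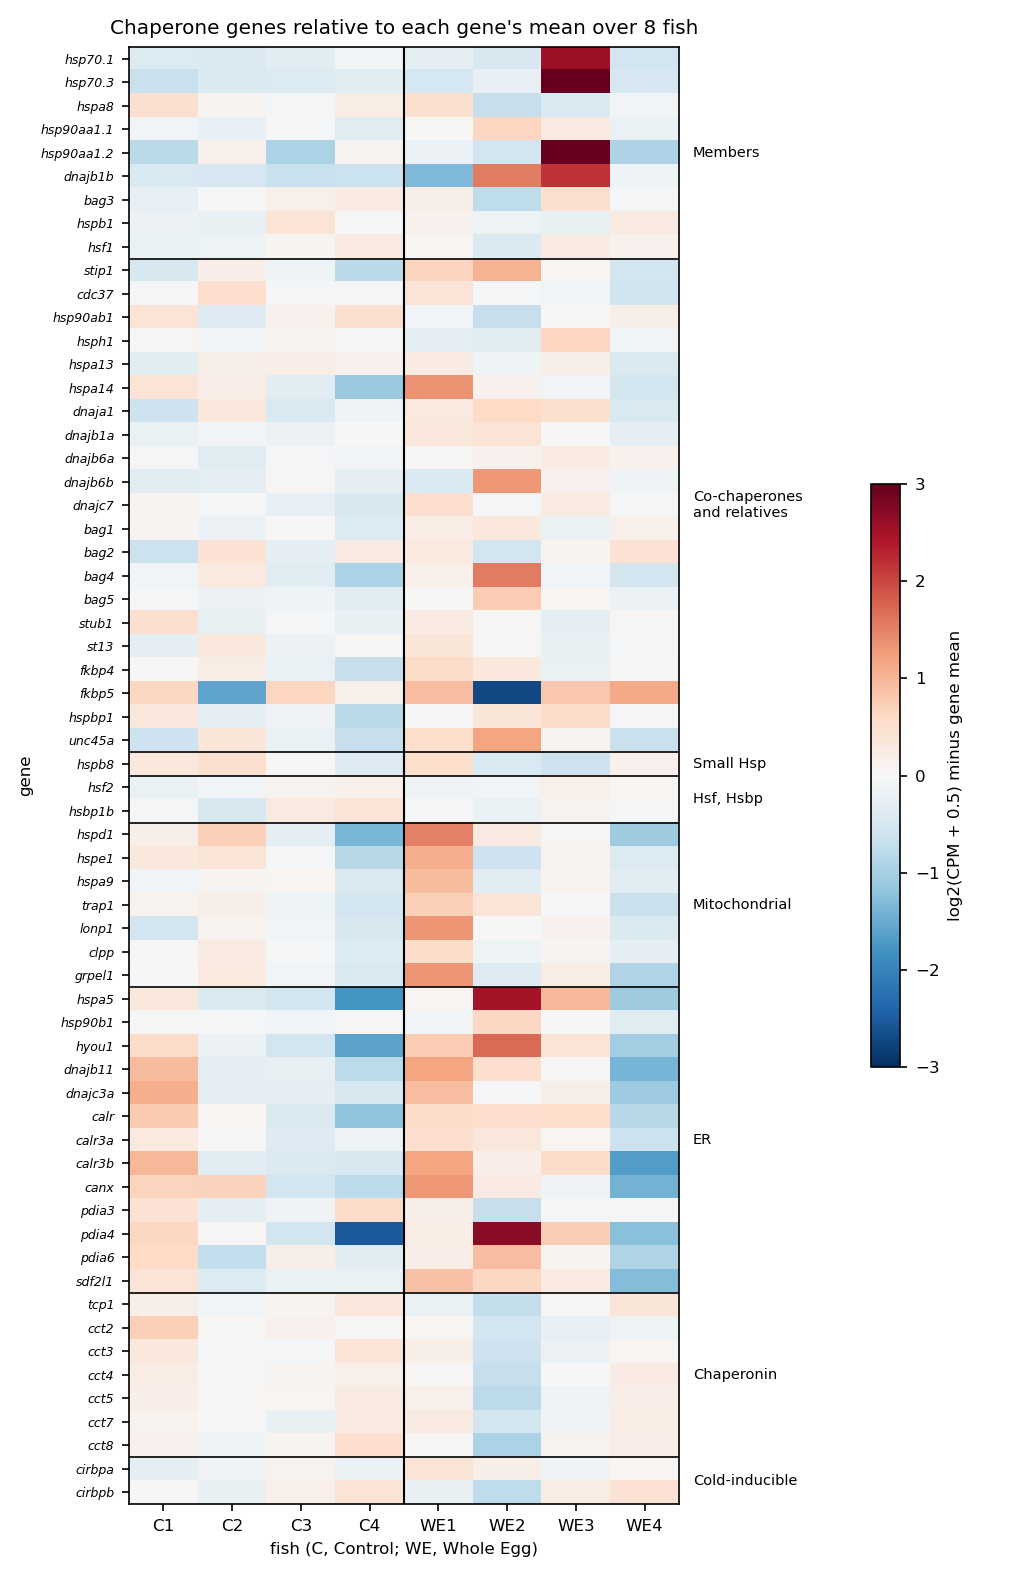
Level of each chaperone gene in each fish relative to its own mean over the 8 fish, as log2(CPM + 0.5) minus the gene mean, with red above and blue below the mean. Rows are the 9 members and the 53 tested genes of the 7 further lists, and columns are C1 to C4 (Control) and WE1 to WE4 (Whole Egg). The darkest red cells of WE3 are those of hsp70.1, hsp70.3, hsp90aa1.2 and dnajb1b, with others such as hspa5 paler. In WE1 the mitochondrial chaperones are red, as are hspa14 and canx, and the darkest of WE2 are the endoplasmic reticulum genes hspa5 and pdia4.

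The genes whose pattern over the 8 fish was most like the mean of the 6 tested members were sought among the 13373 other genes tested. The 5 with the highest Pearson's r of log2 CPM were AFF4 (r = 0.95), IRS2 (0.94), SNX18 (0.94), spata13 (0.93) and PFKFB4 (0.93). AFF4 is a scaffold of the transcription elongation complex, IRS2 an insulin receptor substrate and SNX18 a sorting nexin. PFKFB4 sets the level of a sugar phosphate that regulates glycolysis. Spearman's rho was 0.71, 0.60, 0.67, 0.40 and 0.00 in the order of the r above. Without Whole Egg-3, r was 0.47, 0.43, 0.66, 0.66 and −0.70. These r were picked as the highest of many and rest largely on 1 fish. In Whole Egg-3, IRS2 was at 76.3 CPM and PFKFB4 at 22.3 CPM, with the next fish at 10.3 and 3.21 CPM.

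**Figure D4:**
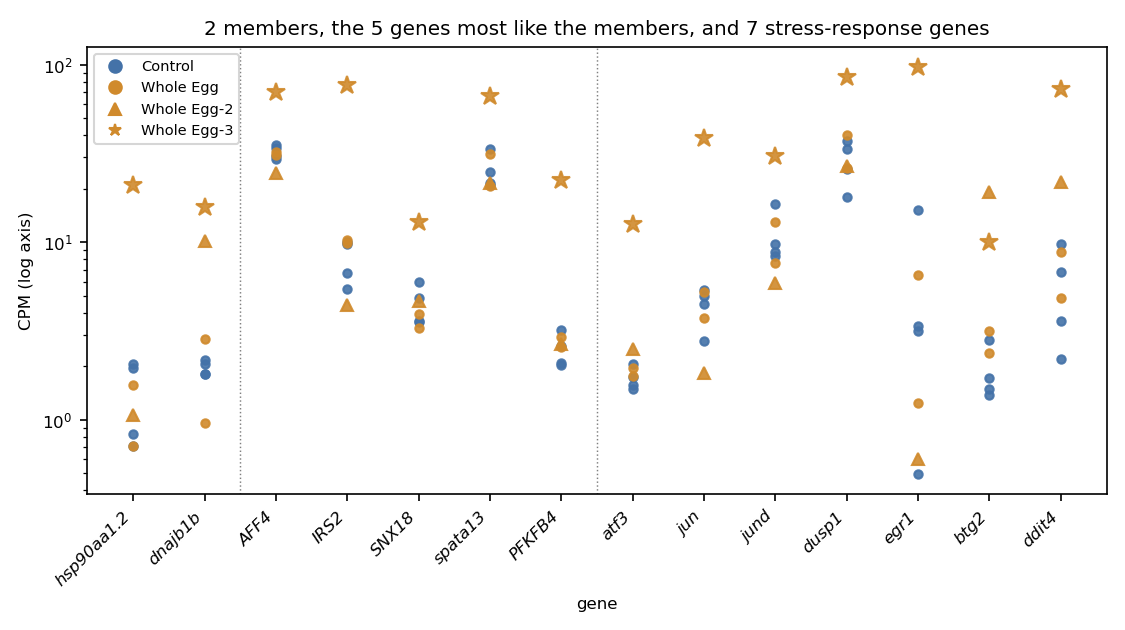
Normalized level in CPM (log axis) in each fish of 2 members, the 5 genes most like the members, and 7 stress-response genes named after their values were seen. Stars mark Whole Egg-3 and triangles Whole Egg-2. The star is the highest point for hsp90aa1.2 (20.9 CPM), dnajb1b (15.8 CPM) and every other gene shown except btg2, where the triangle is higher.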

How the data were processed

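RNA of 4 Control and 4 Whole Egg livers was depleted of ribosomal RNA, made into strand-specific libraries and sequenced from 1 end. After trimming (Trimmomatic 0.36) and alignment to GRCz11 (STAR 2.5.2b), the authors deposited raw counts per Ensembl gene, unfiltered and not normalized, in 3 columns (no strand, and each strand). The sense column, which held 97.9% of the stranded counts, was taken. Rows of no gene were left out (reads on no gene 7.86 to 14.1% of a fish's reads, ambiguous 0.138 to 0.171%). None of the 28 pairs of libraries agreed within counting noise.

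Counts were scaled by TMM over all genes, filtered with filterByExpr (minimum count 10) and tested with edgeR 4.0.16 in R 4.3.3 (quasi-likelihood, Benjamini-Hochberg over 13379 genes, adjusted p under 0.1, no covariate). CPM use TMM-scaled library sizes, and log2 CPM a prior count of 2. The limit for a count of 0 is 3 counts. Alternatives were DESeq2 1.42.0, RLE and upper quartile scaling, counts without strand, 2 other filters, the fish number as a block, 2 pairs of fish left out and each fish left out. Leaving out Whole Egg-2 and Whole Egg-3 together was chosen after seeing the data.

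Members and lists were chosen with earlier results of these data known. From each list, genes with an unadjusted p under 0.05 (at most 3), otherwise the 2 with the largest fold change, are named. Others are named after their values were seen. Symbols came from a gene name table covering 29201 identifiers, in which capitals are printed as given, and for hspa8 from the study's supplementary table. A second identifier is listed as HSPA8 (ENSDARG00000037403). It had between 5 counts (Control-2) and 20 counts (Whole Egg-3) in a fish and did not pass the filter. hsp90aa1.2 is the entry listed as HSP90AA1 beside hsp90aa1.1. Coordinates and sequences are not given.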

Additional observations from a re-analysis of the deposited data

Results flagged for a closer look

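In 3 of the 18 groups of 4 fish examined (9 genes, 2 diets), 1 fish lay far from the other 3, by Dixon's test at a critical ratio of 0.829. Chance flags about 1 in 20 groups, but that rate does not apply here, since the genes were chosen with results of these fish known and genes of 1 fish are not independent. The values are a description. All 3 were Whole Egg-3 among the Whole Egg fish. For hsp70.1 it lay at 3.91 CPM, with the other 3 between 0 and 0.101 CPM. For hsp70.3 it lay at 6.31 CPM, with the others between 0.0503 and 0.173 CPM. For hsp90aa1.2 it lay at 20.9 CPM, with the others between 0.713 and 1.56 CPM.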

How the results depend on the processing

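No member and no gene was called in any of the 19 alternatives (adjusted p under 0.1, or under 0.05). Fits that left out fish were run with edgeR only, and DESeq2 only with all 8 fish. The paper likewise reported no differentially expressed genes with all 8 fish, and none without the fish it numbers Control-2 and Whole Egg-2. Without Control-4 and Whole Egg-1 it did report some. For that it used DESeq2, an adjusted p under 0.1, a cut on the log2 fold change and a filter at 30 counts. This combination was not run here. In the paper's RT-PCR of more fish, 3 of those genes showed no significant difference between these diets. Members at an unadjusted p under 0.05 numbered 1 of 6 with 8 fish, beside 3.82% of all genes tested. With no filter on low counts they numbered 4 of 9 (dnajb1b, hsp70.1, hsp70.3 and hsp90aa1.2), beside 5.66% of all genes. Whole Egg-3 held 89.7%, 91.2% and 72.8% of the reads of hsp70.1, hsp70.3 and hsp90aa1.2. The p of these genes therefore rest largely on 1 fish. Without the pair Control-4 and Whole Egg-1, 1 of 6 members had such a p, beside 7.27% of all genes. Such members numbered 0 with at least 30 counts in every fish (3 members tested, 3.22% of all genes) and with the fish number as a block (5.58%). They also numbered 0 without the pair Control-2 and Whole Egg-2 (2.14%), and without both Whole Egg-2 and Whole Egg-3 (1.95%). With 1 fish left out they numbered 0 to 2, beside 1.76 to 9.82% of all genes. They were 0 without Control-3 (2.14% of all genes), Control-4 (1.76%) or Whole Egg-3 (3.77%), and 2 without Whole Egg-2 (2.56%) or Whole Egg-4 (9.66%). With 1 fish left out, the log2 fold change ranged from 1.26 to 2.30 for dnajb1b, −0.58 to −0.17 for hspa8, −0.31 to 2.51 for hsp90aa1.2, −0.20 to 0.34 for hspb1, −0.24 to 0.19 for bag3 and −0.079 to 0.13 for hsf1. Without both Whole Egg-2 and Whole Egg-3 the sign turned for dnajb1b (−0.054), hspa8 (0.027), hsp90aa1.2 (−0.28), hspb1 (0.32) and bag3 (0.014). It also turned for bag3 without the pair Control-2 and Whole Egg-2 (0.16) and for hsf1 with upper quartile scaling (−0.078). The causes were not tested.

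The labels give fish of the same number under both diets nothing in common but the number. Their deviations correlated across genes with r = 0.20, 0.35, 0.079 and 0.45 for numbers 1 to 4, and Control-1, Control-2 and Control-4 correlated best with the Whole Egg fish of their own number but Control-3 with Whole Egg-2, which is a hint from the data and not from the design. With the number as a block, edgeR called 0 genes (747 at an unadjusted p under 0.05, against 511 without it), and the log2 fold changes were 1.37 for dnajb1b (unadjusted p = 0.104, against 0.0233 without the block), 0.66 for hsp90aa1.2, 0.0084 for hspb1 and −0.0011 for hsf1. Levels under 1 CPM, as for hsp70.1, hsp70.3, hsp90aa1.1 and hspb1 in most fish, rest on few reads.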

Other observations

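Several stress-response genes outside the set were also highest in Whole Egg-3. They were picked with their values in view. The inducible Hsp70 gene hsp70l, a further copy outside the set, had 3.46 CPM there and at most 0.259 CPM in the other 7 fish. Other Hsp70 relatives did not follow: hspa1b was highest in Whole Egg-2 (0.575 CPM, with 0.326 CPM in Whole Egg-3) and hsc70 in Control-4 (6.40 CPM, with 1.22 CPM in Whole Egg-3). Among immediate early genes, which are transcribed within minutes of a stimulus, jun had 38.6 CPM against 1.84 to 5.37 CPM, egr1 96.4 against 0.495 to 15.1 CPM, atf3 12.7 against 1.48 to 2.5 CPM, ier2b 2.12 against 0.202 to 0.452 CPM, and dusp1, a phosphatase of MAP kinases, 85.2 against 17.9 to 39.9 CPM. The mTORC1 inhibitor gene ddit4 had 72.8 CPM in Whole Egg-3 and 21.7 CPM in Whole Egg-2, with 2.2 to 9.77 CPM in the other 6 fish. The antiproliferative gene btg2 was highest in Whole Egg-2 (19.0 CPM) and second in Whole Egg-3 (10.1 CPM).

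Of the tested genes highest in Whole Egg-3, the ratio to the next fish was greatest for ZNF395 (12.7, at 201 CPM), hsp90aa1.2 (10.1), csrnp1a (8.05), IRS2 (7.41), the jun gene above (7.19) and PFKFB4 (6.94). The glucocorticoid-induced Hsp90 co-chaperone gene fkbp5 did not follow them. It lay at 187 CPM in Whole Egg-3, between 118 and 233 CPM in 5 other fish, and at 35.3 CPM in Control-2 and 15.9 CPM in Whole Egg-2.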
